A study of Mus musculus with 12 samples.

Results

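The BCL2 family decides whether a stressed cell keeps its mitochondrial outer membrane intact. Guardian proteins such as BCL2, BCL-XL and MCL1 hold the pore-forming effectors BAX and BAK in check, and the BH3-only proteins, among them PUMA, NOXA, BIM and BID, either disarm the guardians or switch on the effectors. In the heart this balance contributes to the loss of cardiomyocytes when blood flow returns after ischemia. BNIP3L (NIX), a relative with a BH3-like segment, also marks mitochondria for removal by mitophagy.

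Expression of 10 genes of this family was followed here, chosen by symbol: 3 guardians (Bcl2, Bcl2l1 and Mcl1), 2 effectors (Bax and Bak1), 4 BH3-only genes (Bbc3, Pmaip1, Bcl2l11 and Bid) and Bnip3l. Each symbol matched 1 of the 52858 genes in the files, and all 10 were among the 15258 genes with enough reads to be tested.

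The 12 libraries came from perfused mouse hearts in 4 groups of 3 samples, which the main fit treated as independent. C57-non-IR and C57-IR hearts were from C57BL/6J mice, and Slit2-non-IR and Slit2-IR hearts were from Slit2-Tg mice, all males of 3 to 5 months. IR hearts had 20 min of equilibration, 20 min of global ischemia without flow and 40 min of reperfusion on a Langendorff apparatus, and non-IR hearts were perfused throughout for 80 min. Genotype is stated in the sample labels, whereas IR or non-IR was taken from title letters matched to the groups named in the methods. All hearts were thus isolated and perfused outside the body with no circulating blood. The transgene is a human Slit2 cDNA driven by the CMV promoter, carried by heterozygotes that descend from eggs of a C57 × CBA cross, so the Slit2-Tg and C57BL/6J mice may differ at loci other than the transgene.

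A library held between 16601154 and 24841291 recovered reads on genes, with a median of 17353883 in C57-non-IR and of 21138217 to 21798974 in the other groups. Mitochondrial genes held 23.9 to 26.0% of them in the 6 C57BL/6J libraries and 19.7 to 23.8% in the 6 Slit2-Tg libraries. Mouse Slit2 was at 0.18 to 0.28 FPKM (fragments scaled to gene length and library depth) in the 6 C57BL/6J libraries. Among the 6 Slit2-Tg libraries, Slit2-IR replicate 2 was at 0.81 FPKM (498 reads), and all others were at 0.08 to 0.18 FPKM. The transgene is a human cDNA, so reads on the mouse gene do not check the genotype labels. All 6 cardiomyocyte markers were detected in every group. Summed atrial markers were 33.9 to 96.9 FPKM in C57-non-IR, 96.4 to 253 in C57-IR, 51.4 to 121 in Slit2-non-IR and 75.9 to 1770 FPKM in Slit2-IR hearts, where replicate 1 stood apart. The 5 neutrophil markers summed to at most 1.39 FPKM in any library, with Ly6g at 0 in all 12. In whole tissue, a change in the number of cells of a type and a change in RNA per cell cannot be told apart.

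Of the 10 members, 1 passed the test after IR, and it did so in both genotypes. Of all tested genes, 0.439% passed in C57BL/6J and 0.505% in Slit2-Tg hearts. The call within each genotype was lost in 9 of the 12 fits that left out 1 library, while that averaged over genotypes held. Pmaip1, which encodes the BH3-only protein NOXA, a binding partner that disarms MCL1, rose 5.71-fold in C57BL/6J and 4.98-fold in Slit2-Tg hearts by the ratio of mean FPKM. Mcl1 and Bbc3 had higher means and Bcl2l1 lower means after IR in both genotypes, without passing the adjusted threshold. No member passed in either comparison of Slit2-Tg with C57BL/6J hearts, and no IR difference was shown to depend on the genotype.

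**Figure D1:**
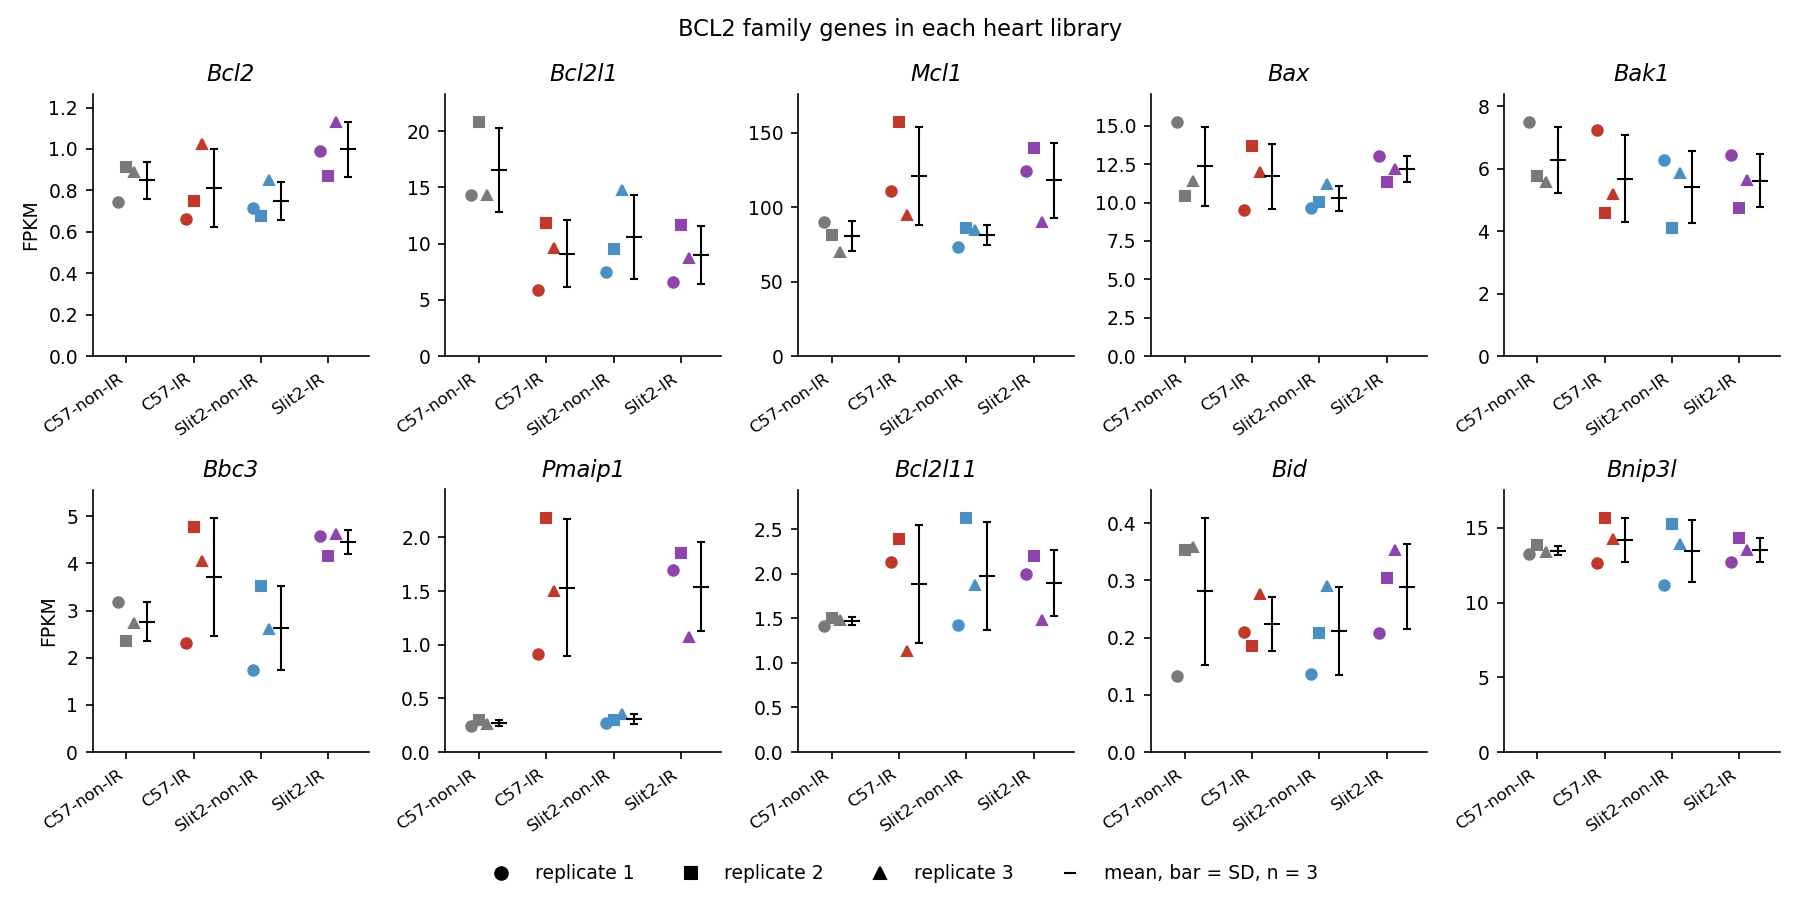
FPKM of the 10 BCL2 family genes (1 panel each, linear axis from 0) in the 12 libraries, with the marker shape giving the replicate and the bar the mean and SD of 3 libraries. All 6 IR libraries lie above all 6 non-IR libraries for Pmaip1 (0.91 to 2.18 against 0.24 to 0.36 FPKM) and for Mcl1 (90.4 to 158 against 70.1 to 89.98 FPKM).

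Members were expressed at very different levels, which FPKM, as a value per length, allows to be compared between genes. Mcl1 was by far the highest, with a mean of 100.3 ± 27.2 FPKM (SD, n = 12), and made up 58.2 to 73.8% of the summed FPKM of the 10 genes in a library. Bnip3l (13.6 FPKM), Bax (11.6 FPKM) and Bcl2l1 (11.3 FPKM) followed at close means. Bnip3l exceeded Bax in 10 of the 12 libraries and Bax exceeded Bcl2l1 in 8, so these neighbours were not separated beyond their spread. Bak1 (5.75 FPKM), Bbc3 (3.39 FPKM) and Bcl2l11 (1.81 FPKM) were lower. At the bottom, Pmaip1 (0.911 FPKM) and Bcl2 (0.851 FPKM) changed places with the group, Pmaip1 being the higher in 5 of 12 libraries, and Bid (0.251 FPKM) was lowest.

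The bases before the start sites of 3 members with the smallest IR p-values after Pmaip1 are printed to show the promoters in question. RefSeq promoter windows (GRCm38.p6) were used for 8 of the 10 members. Pmaip1, the only member called, and Bnip3l had no window here, so they were not searched for motifs. Each window below is the 250 bases before the RefSeq start nearest to the gene's 5′ end in the files, read on the gene's strand. The Mcl1 window is chr3:95658471-95658720 (+), the Bcl2l1 window chr2:152831729-152831978 (-) and the Bbc3 window chr7:16309333-16309582 (+), and no exon of GENCODE vM21 overlapped any of them. The RefSeq start behind the Bbc3 window lies 1190 bases downstream of the 5′ end in the files. Capitals mark matches, on either strand, to the motifs named after the sequences.
Mcl1: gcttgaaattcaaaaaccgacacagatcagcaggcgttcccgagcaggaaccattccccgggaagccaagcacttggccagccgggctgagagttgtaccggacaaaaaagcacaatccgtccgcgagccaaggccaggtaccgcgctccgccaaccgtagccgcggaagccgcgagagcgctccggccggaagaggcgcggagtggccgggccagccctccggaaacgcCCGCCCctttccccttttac
Bcl2l1: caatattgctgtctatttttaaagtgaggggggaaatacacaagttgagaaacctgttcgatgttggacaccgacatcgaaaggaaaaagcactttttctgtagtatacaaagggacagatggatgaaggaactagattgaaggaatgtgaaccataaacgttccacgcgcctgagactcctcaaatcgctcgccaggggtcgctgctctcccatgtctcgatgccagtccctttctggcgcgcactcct
Bbc3: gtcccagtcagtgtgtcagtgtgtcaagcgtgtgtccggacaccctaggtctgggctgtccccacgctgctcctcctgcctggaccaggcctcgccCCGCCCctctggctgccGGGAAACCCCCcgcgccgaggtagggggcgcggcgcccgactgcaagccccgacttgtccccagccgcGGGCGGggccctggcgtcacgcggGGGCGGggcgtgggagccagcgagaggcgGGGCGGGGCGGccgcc

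The GC box (GGGCGG), the letters that SP1 family factors bind, occurred at 1 place in the Mcl1 window and at 5 in the Bbc3 window, of which 2 share a base, and in 32.7% of all 32851 windows of this length. In total 6 of the 8 windows of members held it. A kappaB motif, as bound by NF-kappaB, overlapped itself in the Bbc3 window at bases -137 to -127 before the start and in 3.90% of all windows. The Bcl2l1 window matched none of the motifs searched. Bcl2l1 and Bbc3 each have 3 RefSeq windows and Bcl2l11 has 2, of which only the nearest was searched. The CRE (TGACGTCA, in 1.55% of windows), the AP-1 site (TGANTCA, 6.75%) and the heat shock element (GAANNTTC, 6.69%) were in none of the 8 windows searched. Neither were the TATA box (TATAAA, 12.4%) and the serum response element (1.47%). The E-box (CACGTG, 6.02%) and a p53 decamer motif (7.13%) were in the Bax window alone. These absences do not cover Pmaip1 and Bnip3l, which had no window. These are matches of letters and describe the windows only.

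Pmaip1 (ENSMUSG00000024521, chr18:66458604-66465550, + strand) was at 0.24, 0.30 and 0.26 FPKM in C57-non-IR replicates 1 to 3 and at 0.91, 2.18 and 1.50 FPKM in C57-IR replicates. In Slit2-Tg hearts it was at 0.27, 0.29 and 0.36 FPKM without IR and at 1.69, 1.85 and 1.07 FPKM after IR. Every IR library was above every non-IR library in both genotypes. The gene had 11 to 24 reads in a non-IR library and 42 to 118 in an IR library, so its baseline rests on few reads, and at such low levels the test made more false calls on simulated data than its threshold allows. On the log2(FPKM + 1) scale, which understates changes of low genes, the difference was 0.97 (SE 0.16, limma adjusted p = 0.0391) in C57BL/6J and 0.94 (SE 0.16, adjusted p = 0.0404) in Slit2-Tg hearts.

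Averaged over both genotypes the IR difference of Pmaip1 was 0.95 (95% interval 0.70 to 1.21, limma adjusted p = 0.002), the 33rd smallest p-value among the 15258 genes. A two-sided exact permutation test within genotypes gave p = 0.005, the smallest that 400 relabelings allow, while 3 libraries against 3 cannot go below p = 0.1. The call of the averaged difference held in every setting tried, with adjusted p from 0.000205 to 0.0105. The call within a single genotype was close to the threshold and was lost, for each genotype, in 9 of the 12 fits that left out 1 library, with adjusted p up to 0.167 in C57BL/6J and 0.159 in Slit2-Tg hearts. The responses of the genotypes differed by -0.02 (95% interval -0.53 to 0.48, limma adjusted p = 1.0).

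Mcl1 (ENSMUSG00000038612, chr3:95658788-95663176, + strand) encodes the short-lived guardian that NOXA binds. Its values were 89.98, 81.6 and 70.1 FPKM in C57-non-IR, 111, 158 and 94.7 in C57-IR, 73.5, 86.1 and 84.8 in Slit2-non-IR, and 124, 140 and 90.4 FPKM in Slit2-IR hearts. The IR libraries did not overlap the non-IR libraries in either genotype, though replicate 3 of each IR group came close. The ratio of mean FPKM was 1.50 in C57BL/6J and 1.45 in Slit2-Tg hearts, and the log2 differences of 0.55 (SE 0.20) and 0.51 (SE 0.20) had unadjusted p of 0.0173 and 0.026 and adjusted p of 0.376 and 0.346 (limma).

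Averaged over genotypes, Mcl1 differed by 0.53 (95% interval 0.22 to 0.84, limma p = 0.00295, adjusted p = 0.0678, exact permutation p = 0.005). It thus missed the adjusted threshold. It passed with the replicate number as a block (limma adjusted p = 0.0235), without C57-IR replicate 3 (0.0442) or without Slit2-IR replicate 3 (0.0314). These 2 replicates had the lowest Mcl1 values of their IR groups. The limma adjusted p rose to as much as 0.148 when another library was left out and 0.145 in another setting.

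Bcl2l1 (ENSMUSG00000007659, chr2:152780668-152831728, - strand) encodes BCL-XL, a guardian of the outer membrane in many adult tissues. It was at 14.4, 20.8 and 14.3 FPKM in C57-non-IR and at 5.91, 11.8 and 9.63 FPKM in C57-IR hearts, with no overlap. In Slit2-Tg hearts it was at 7.47, 9.54 and 14.7 FPKM without IR and at 6.55, 11.7 and 8.73 FPKM after IR, and these groups overlapped. The log2 difference after IR was -0.82 (SE 0.28, limma adjusted p = 0.355) in C57BL/6J and -0.20 (SE 0.28, adjusted p = 0.884) in Slit2-Tg hearts. The test of the difference between these responses gave 0.62 (95% interval -0.27 to 1.50, limma adjusted p = 1.0), so a dependence on genotype was not shown. Without IR the Slit2-Tg libraries had a mean of 10.6 ± 3.73 FPKM against 16.5 ± 3.75 FPKM (SD, n = 3) in C57BL/6J, a log2 difference of -0.62 (95% interval -1.25 to 0.00, limma adjusted p = 1.0).

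Bcl2 (ENSMUSG00000057329, chr1:106538178-106714274, - strand), the founding guardian, was low in all groups. It was at 0.66 to 1.03 FPKM in the 6 C57BL/6J libraries, which overlapped between IR and non-IR. In Slit2-Tg hearts the values were 0.72, 0.68 and 0.85 FPKM without IR and 0.99, 0.87 and 1.13 FPKM after IR, which did not overlap, with a log2 difference of 0.19 (SE 0.09, limma adjusted p = 0.446).

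Neither effector was called in any comparison. Bax (ENSMUSG00000003873, chr7:45461697-45466898, - strand) had means of 12.4 and 11.7 FPKM in C57-non-IR and C57-IR hearts, and of 10.3 and 12.2 FPKM in the Slit2-non-IR and Slit2-IR groups. All 3 Slit2-IR libraries (11.4 to 13.0 FPKM) were above all 3 Slit2-non-IR libraries (9.63 to 11.2 FPKM), with a log2 difference of 0.23 (95% interval -0.10 to 0.56, limma adjusted p = 0.646). Bak1 (ENSMUSG00000057789, chr17:27019810-27029009, - strand) ranged from 4.09 to 7.51 FPKM with overlap in every comparison. Its reads are uncertain, since 614 of its 2407 exonic bases are shared with exons of Ggnbp1 on the other strand and the use of strand in counting is not given in the sources used here.

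Among the other BH3-only genes, Bbc3 (ENSMUSG00000002083, chr7:16308393-16318205, + strand), which encodes PUMA, a p53 target that binds all guardians, had the smallest p-value for the averaged IR difference. It was at 3.18, 2.36 and 2.75 FPKM in C57-non-IR and at 2.32, 4.77 and 4.04 FPKM in C57-IR hearts, where replicate 1 was below every control. In Slit2-Tg hearts it was at 1.75, 3.53 and 2.60 FPKM without IR and at 4.59, 4.17 and 4.63 FPKM after IR, with no overlap. The log2 differences were 0.29 (SE 0.21, limma adjusted p = 0.836) and 0.62 (SE 0.21, adjusted p = 0.265). Their average was 0.46 (95% interval 0.13 to 0.79, limma adjusted p = 0.141, exact permutation p = 0.035). Of the 12 fits that left out 1 library, it passed in 1, without C57-IR replicate 1, the lowest IR value (limma adjusted p = 0.0273). In the other fits of this kind the limma adjusted p reached 0.31.

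Bcl2l11 (ENSMUSG00000027381, chr2:128126038-128162547, + strand) encodes BIM, which binds both guardians and effectors. Its C57-non-IR libraries were tightly grouped at 1.42 to 1.51 FPKM, while the C57-IR libraries spread from 1.14 to 2.39 FPKM on both sides of them. Bid (ENSMUSG00000004446, chr6:120891930-120916853, - strand), the link from death receptors to mitochondria once cleaved, had only 8 to 28 reads in a library, and 628 of its 3550 exonic bases are shared with Bcl2l13 on the other strand. No change of Bid was detected, with an averaged IR difference of 0.01 (95% interval -0.11 to 0.14). Bnip3l (ENSMUSG00000022051, chr14:66985239-67008877, - strand) was the steadiest of the members above 10 FPKM, at 11.2 to 15.6 FPKM in all libraries, and its averaged IR difference was 0.04 (95% interval -0.14 to 0.22).

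**Figure D2:**
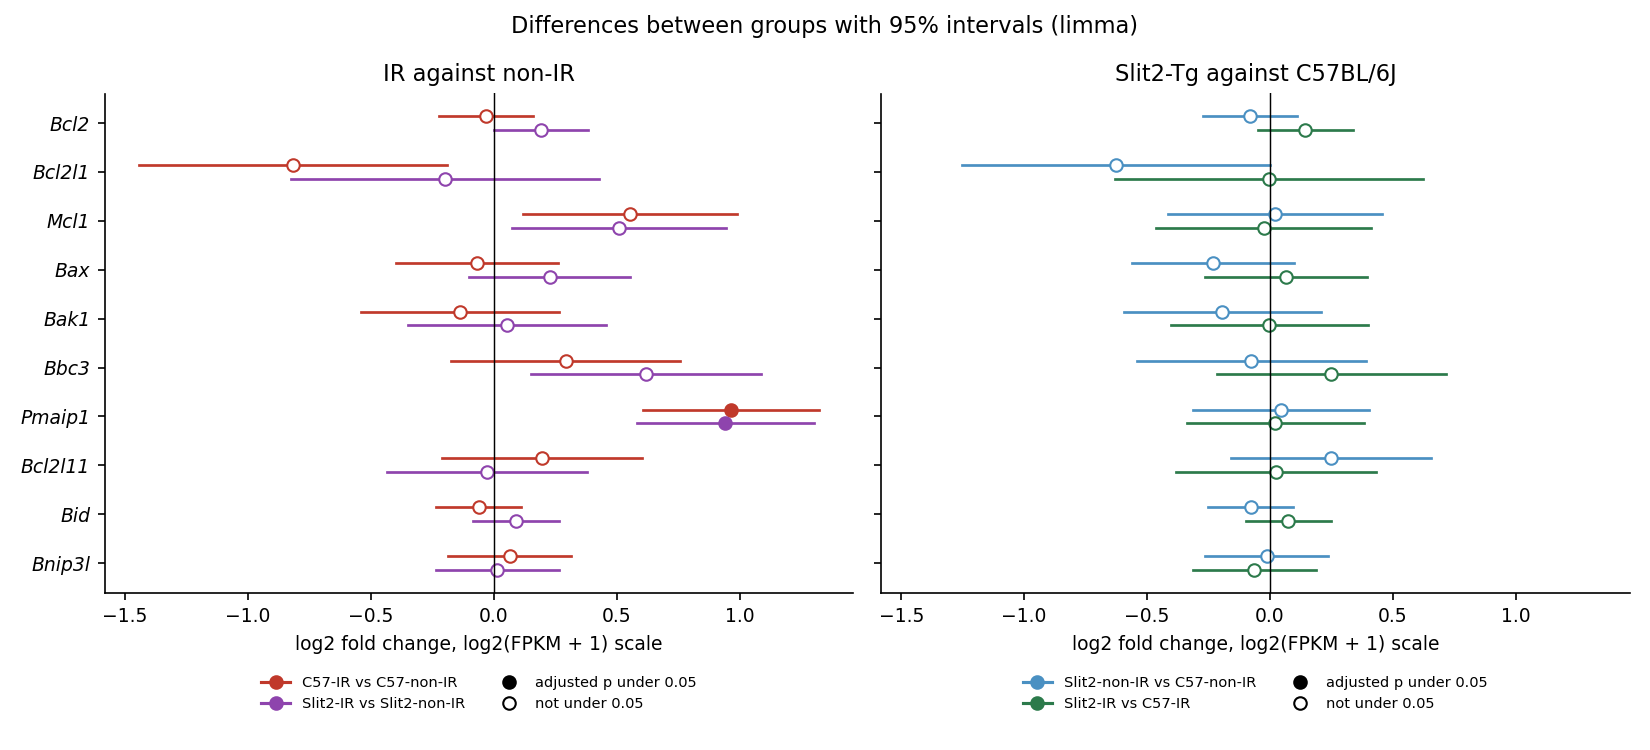
Log2 fold changes of the 10 members on the log2(FPKM + 1) scale (points) with 95% intervals (lines) for the IR comparisons (left) and the genotype comparisons (right), filled where the limma adjusted p is under 0.05. Only Pmaip1 is filled, at 0.97 in C57BL/6J and 0.94 in Slit2-Tg hearts, and no interval of a genotype comparison lies wholly on one side of 0.

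The counts of members were set against all tested genes. In C57-IR against C57-non-IR hearts, 1 of 10 members passed the adjusted threshold, where 0.439% of all genes did. At an unadjusted p under 0.05 there were 3 (Bcl2l1, Mcl1 and Pmaip1) against a background of 8.96%, and the same 3 did not overlap between groups, against 13.8%. For the IR comparison in Slit2-Tg hearts, 1 passed (background 0.505%), 4 had an unadjusted p under 0.05 (Pmaip1, Bbc3, Mcl1 and Bcl2, background 11.2%), and 5, all higher after IR, did not overlap (background 17.0%, and 8.64% in this direction). The median log2 difference of the members was 0.02 in C57BL/6J and 0.14 in Slit2-Tg hearts, against medians of 0.00 and 0.01 over all tested genes. For the averaged IR difference, 1 member passed (background 3.48%) and 4 had an unadjusted p under 0.05 (background 15.9%).

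Between genotypes no member was called. In Slit2-non-IR against C57-non-IR hearts, 0 members passed the limma threshold (background 0.0393%), 0 had an unadjusted p under 0.05 (background 3.18%) and 0 did not overlap (background 9.18%). Bcl2l1, lower in Slit2-Tg hearts, was just outside the unadjusted threshold (limma p = 0.0504, adjusted p = 1.0, exact permutation p = 0.3). In Slit2-IR against C57-IR hearts the counts were again 0, with backgrounds of 0.0459%, 3.16% and 6.47%, and limma-voom on the recovered reads also called 0 members in both comparisons. The 95% interval of the genotype difference after IR ran from -0.34 to 0.38 for Pmaip1 and from -0.46 to 0.41 for Mcl1 on the log2 scale, so differences of that size were not excluded. For Bcl2l1 it was wider still, from -0.63 to 0.62. The 2 genotype comparisons share no libraries, but each shares its groups with the IR comparisons.

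The interaction of Slit2-Tg and IR called 0 of 10 members (background 0.00%), and 0 had an unadjusted p under 0.05 (background 1.85%). The smallest unadjusted p was that of Bcl2 (0.0963), with a difference between responses of 0.22 on the log2 scale (95% interval -0.05 to 0.50). For the genotype difference averaged over IR and non-IR hearts, 0 members passed the limma threshold (background 0.131%) and 0 had an unadjusted p under 0.05 (background 4.11%).

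Ratios between members within a library do not depend on how libraries were scaled, and they are given as values without a test. The Mcl1 to Pmaip1 ratio, a guardian over its BH3-only partner, was 369, 274 and 268 in C57-non-IR and 122, 72.2 and 63.3 in C57-IR hearts. In Slit2-Tg hearts it was 269, 292 and 237 without IR and 73.3, 75.3 and 84.6 after IR. The Mcl1 transcript thus remained at least 63.3 times as high per length as that of Pmaip1 in every library. The ratio of Mcl1 to Bcl2l1 was 3.91 to 6.27 in C57-non-IR and 9.83 to 18.7 in C57-IR hearts, with Slit2-non-IR hearts at 5.76 to 9.84 and Slit2-IR hearts at 10.4 to 19.0. The ratio of Bax to Bcl2, often used as an index of the balance, overlapped between IR and non-IR in C57BL/6J hearts, with medians of 12.8 without and 14.3 with IR. In Slit2-Tg hearts its 3 IR values (10.8 to 13.1) were just below its 3 non-IR values (13.2 to 14.8).

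**Figure D3:**
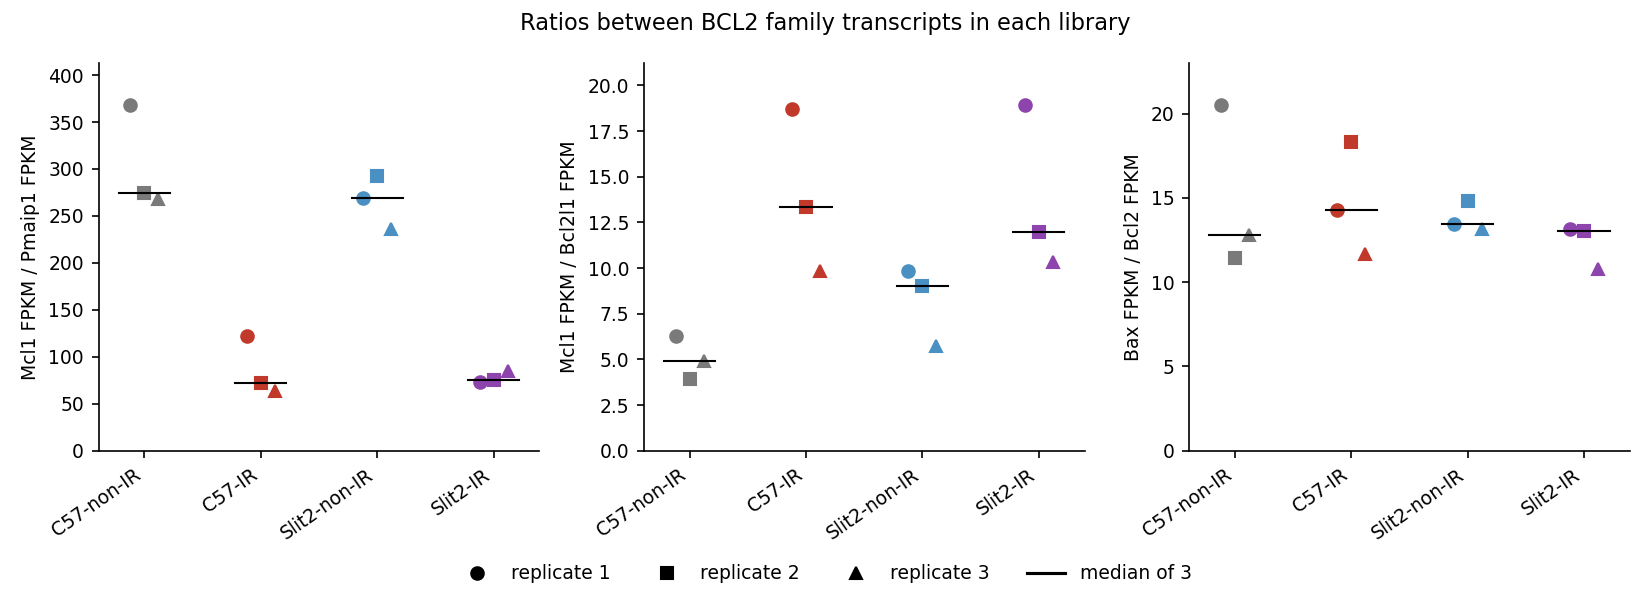
Ratios of FPKM between pairs of members in each library (linear axes from 0), with marker shape giving the replicate and the line the median of 3. The Mcl1 to Pmaip1 ratio lies at 237 to 369 in non-IR and 63.3 to 122 in IR libraries, and the Bax to Bcl2 ratio at 11.4 to 20.5 in non-IR and 10.8 to 18.3 in IR libraries.

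The genes most like Pmaip1 across libraries were named by their Pearson correlation of log2(FPKM + 1) over the 12 libraries, which share the IR split. They were Gcc1 (r = 0.993), a golgin of the trans-Golgi network, Cxcl10 (r = 0.990), an interferon-induced chemokine, and Tnfaip3 (r = 0.988), an inhibitor of NF-kappaB signaling. Mean FPKM of Gcc1 was 2.68 and 2.55 in C57-non-IR and Slit2-non-IR and 7.82 and 6.95 in C57-IR and Slit2-IR hearts. Among the members, Mcl1 (r = 0.882) and Bbc3 (r = 0.757) were most like Pmaip1 and Bcl2l1 least (r = -0.373).

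Other genes of the cell death pathway were counted in 8 lists of 89 genes, of which 81 were tested. Averaged over genotypes, 8 were higher and 2 lower after IR at the adjusted threshold (background 3.48% of all tested genes), and the median log2 difference of the 81 was 0.04, against 0.00 over all tested genes. Within C57BL/6J hearts 2 passed (Atf3 and Pim1, background 0.439%) and within Slit2-Tg hearts 1 did (Atf3, background 0.505%). With the replicate number as a block, 6 passed in Slit2-Tg hearts. The backgrounds given belong to the fit without the block, and the share over all genes with the block is not given here.

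Regulators of BH3-only genes held the largest difference. Atf3, a stress-induced transcription factor, was at 56.0 to 66.4 FPKM in C57-non-IR and 284 to 656 FPKM in C57-IR hearts, and at 45.9 to 78.4 FPKM in Slit2-non-IR and 242 to 591 FPKM in Slit2-IR hearts. Its averaged log2 difference was 2.55 (SE 0.26, limma adjusted p = 0.000847), and Jun, an AP-1 subunit, rose by 1.10 (SE 0.18, adjusted p = 0.00648). In all, 2 of the 11 tested genes of this list passed for the averaged difference. The background of 3.48% applies to this count and to those of the lists below.

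Partners of the BCL2 proteins included 2 that passed of 13. Pim1, a kinase that phosphorylates BAD, rose by 1.72 on the log2 scale (SE 0.25, limma adjusted p = 0.00428), from means of 11.7 and 16.2 FPKM to 48.6 and 49.9 FPKM. Bag3, a co-chaperone of HSP70 that binds BCL2, rose by 0.87 (SE 0.16, adjusted p = 0.0123).

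In the death receptor and necroptosis list, 3 of 12 rose and 1 fell. Tnfrsf10b, the TRAIL receptor, rose by 1.37 (SE 0.20, limma adjusted p = 0.0042), while Tnfsf10, which encodes its ligand TRAIL, fell by 0.48 (adjusted p = 0.0184). The kinases Ripk3 and Ripk1, which start necroptosis together, rose by 0.74 and 0.53 (adjusted p = 0.0212 and 0.0466). Receptor and ligand thus moved in opposite directions at the transcript level.

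Among the 5 inhibitor of apoptosis genes only Birc3, which encodes the ubiquitin ligase cIAP2, rose (0.79, SE 0.14, limma adjusted p = 0.0114). Of 15 apoptosome and caspase genes only Casp2 passed, and it fell by 0.21 (adjusted p = 0.0412) from means of 1.26 and 1.15 FPKM to 0.99 and 0.83 FPKM. No mitophagy gene of 14 passed, and the nearest was Bnip3, the sister gene of Bnip3l, with a difference of -0.29 (adjusted p = 0.0784). The other family genes gave 0 calls in 11 tested genes by limma (background 3.48%), with 2 at an unadjusted p under 0.05 (background 15.9%). These were Bcl2a1d, a guardian, with a difference of 0.42 (adjusted p = 0.117), and Bmf, a BH3-only gene, with -0.33 (adjusted p = 0.109). Bcl2a1d has near-identical copies in the mouse genome, so its reads are uncertain.

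**Figure D4:**
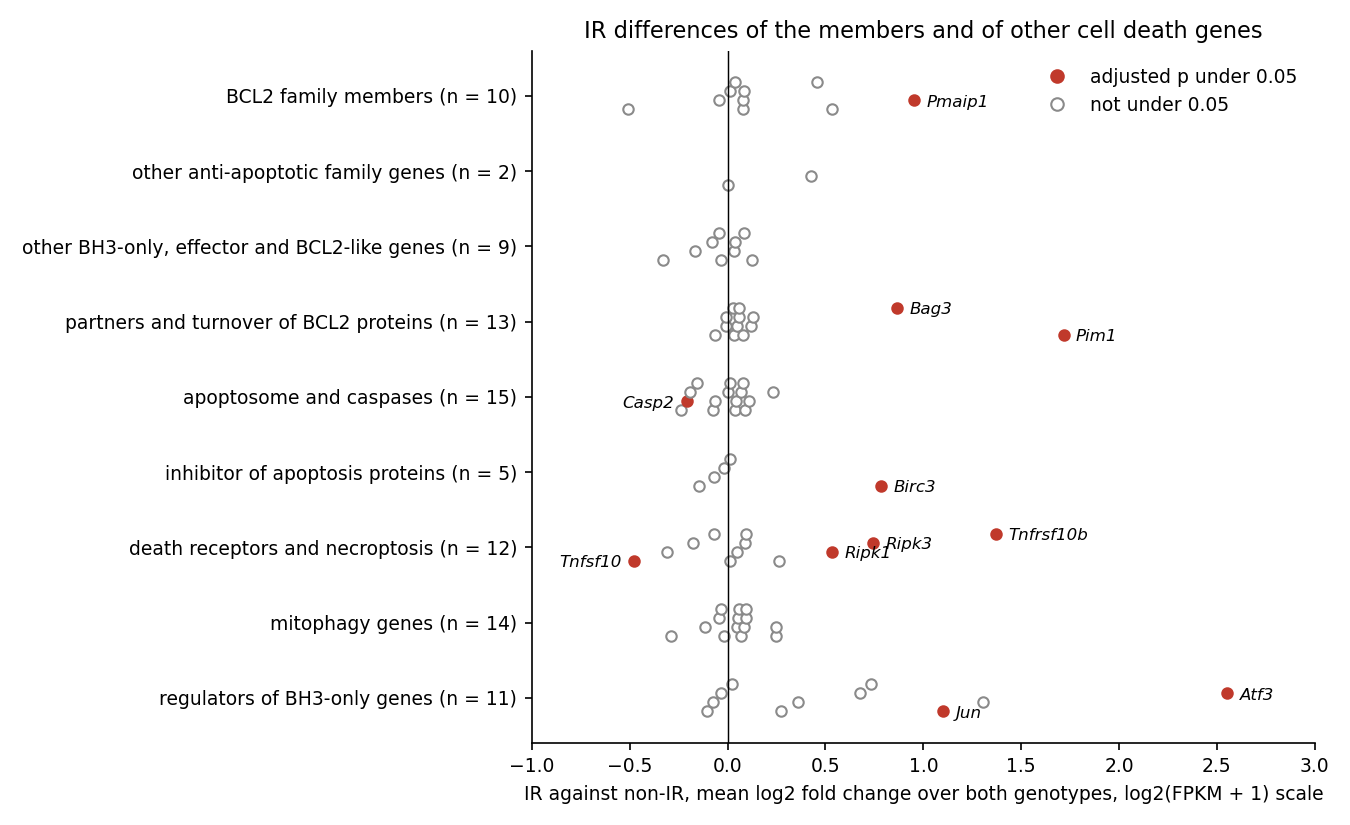
IR difference averaged over both genotypes (log2 scale, x axis) for each tested gene of the members and of the 8 other lists (1 row per list), filled and named where the limma adjusted p is under 0.05. The named genes run from Tnfsf10 at -0.48 to Atf3 at 2.55, and Pmaip1 at 0.95 is the member that is named.

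Cell type markers varied alongside these values. Summed endothelial markers were 206 to 245 FPKM in C57-non-IR and 168 to 293 in C57-IR hearts, with 155 to 223 in Slit2-non-IR and 183 to 273 FPKM in Slit2-IR hearts. The 6 leukocyte markers summed to 114 to 245, 113 to 239, 150 to 217 and 113 to 189 FPKM in the same order and overlapped between all groups. In every group replicate 1 had the lowest leukocyte sum (113 to 150 FPKM) and the highest cardiomyocyte sum, at 16084 to 18519 FPKM against 12111 to 14715 FPKM in replicates 2 and 3. Fibroblast markers summed to 103 to 164, 113 to 204, 152 to 188 and 170 to 189 FPKM, and blood markers to 8.35 to 16.2, 1.47 to 6.79, 4.53 to 49.0 and 1.85 to 12.9 FPKM. Adipose markers were at 0.00 to 0.85 FPKM in C57-non-IR and 0.11 to 17.2 in C57-IR hearts, with 1.41 to 7.97 in Slit2-non-IR and 0.77 to 10.02 FPKM in Slit2-IR hearts. The averaged Pmaip1 call held without Slit2-IR replicate 1, the library with the highest atrial sum. C57-IR replicate 2, next in atrial sum (253 FPKM), had the highest Pmaip1 value (2.18 FPKM) and stayed in that fit. The part of replicate 1 and of atrial, endothelial, leukocyte, cardiomyocyte, blood and adipose content in the values of Pmaip1 and the other genes was not tested.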

How the data were processed

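Total RNA of 12 hearts was sequenced as paired-end reads on a HiSeq instrument after library preparation with the NEBNext Ultra kit. HISAT2 and mm10 are named in the submitters' processing notes. How reads were counted, with which gene annotation and whether by strand, is not given in the sources used here. The authors deposited FPKM per gene and library, and 0 per-library columns were left unused. After multiplying by gene length, 100% of values came out as whole reads (within 0.01 read), which gave the depth, and the value of 1 read followed median-of-ratios size factors, so libraries had been scaled together.

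A gene was tested if, scaled to the median library, it reached 10 reads in 3 or more libraries, with 15 or more reads in total. Since these are normalized values, limma (version 3.58.1, R 4.3.3) was used on log2(FPKM + 1) with a trended moderated variance, 1 fit of the 4 groups, no covariate and Benjamini-Hochberg adjustment over all 15258 genes of a contrast, threshold 0.05. The written design named a count test for counts and this test for FPKM. The fit was tested on simulated data, where false calls were more frequent than the threshold allows, mostly at low FPKM, the range of Pmaip1. Whether it finds differences as small as those of Mcl1, Bbc3 and Bcl2l1 was not tested. Permutation tests of single genes were exact and two-sided. Intervals cover the spread between samples, and recovered reads give counting depth only.

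The members and lists were chosen with earlier results of these data known. Genes named were the 10 members, Slit2, genes of the other lists with an adjusted p under 0.05 in any contrast and, per list, the gene with the smallest p for the averaged IR difference, the 3 genes most correlated with Pmaip1, and genes overlapping a member. Alternatives were a pseudocount of 0.1, other filters, a fit of only the groups compared, TMM scaling, a block for the replicate number, limma-voom on recovered reads and leaving out each library. Same-numbered libraries deviated together (all 3 correlations of deviations over 0.1) in the IR comparison of Slit2-Tg hearts (0.142 to 0.295) and in Slit2-IR against C57-IR hearts (0.154 to 0.362). The other 2 pairwise comparisons missed this rule by their lowest value, though all their correlations were positive. They were 0.0837 to 0.295 in C57-IR against C57-non-IR and 0.0380 to 0.324 in Slit2-non-IR against C57-non-IR hearts. This pairing comes from the data, since the labels name no shared day or litter. Promoter windows are RefSeq's, with exons from GENCODE vM21.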

Additional observations from a re-analysis of the deposited data

How the results depend on the processing

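Members called numbered 1 in C57-IR against C57-non-IR hearts, and 0 with no filter on low values (28242 genes tested in place of 15258), with only the libraries compared, or with limma-voom on recovered reads. Pmaip1, the gene concerned, then had adjusted p of 0.137, 0.157 and 0.0504 with its direction kept. For the IR comparison of Slit2-Tg hearts the count of 1 became 0 with no filter (adjusted p = 0.12). For the averaged IR difference the count of 1 became 2 with the replicate block, which added Mcl1. The block changed no other member's call. Leaving out 1 library gave 0 to 1 members in either IR comparison and 1 to 2 for the average. Shares over all genes are not given for these settings, so the counts have no background beside them.

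Other cell death genes called numbered 2 in C57BL/6J hearts, with 0 under no filter, 1 with only the libraries compared or TMM scaling, and 4 with the replicate block. They numbered 1 in Slit2-Tg hearts, with 0 under no filter, 3 with at least 10 reads in every library, 4 with a pseudocount of 0.1 or limma-voom, and 6 with the block. Leaving out 1 library gave 0 to 5, 0 to 4 and, for the average (10 called), 6 to 12. Apart from the filter, the cause of these shifts was not tested. The shares of all genes called in these settings are likewise not given, so the counts cannot be set against a background.

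Of 70 differences of single members, 42 kept their direction in every setting. The difference of Bak1 in Slit2-IR against C57-IR hearts was 0.00096 with TMM scaling and 0.00342 with limma-voom. Leaving out 1 library turned the direction of differences that were not called. In C57-IR against C57-non-IR hearts their ranges were -0.12 to 0.0268 for Bcl2, -0.18 to 0.0832 for Bax and -0.00377 to 0.14 for Bnip3l. For IR in Slit2-Tg hearts they were -0.40 to 0.0466 for Bcl2l1, -0.10 to 0.15 for Bak1, -0.16 to 0.13 for Bcl2l11 and -0.10 to 0.10 for Bnip3l. In Slit2-non-IR against C57-non-IR hearts they were -0.0751 to 0.10 for Mcl1, -0.25 to 0.11 for Bbc3 and -0.10 to 0.10 for Bnip3l. In Slit2-IR against C57-IR hearts they were -0.26 to 0.19 for Bcl2l1, -0.18 to 0.18 for Mcl1, -0.0679 to 0.18 for Bax, -0.12 to 0.16 for Bak1, -0.17 to 0.20 for Pmaip1, -0.18 to 0.15 for Bcl2l11 and -0.14 to 0.00504 for Bnip3l. For the interaction they were -0.20 to 0.16 for Mcl1, -0.21 to 0.16 for Pmaip1 and -0.17 to 0.0394 for Bnip3l. For the averaged IR difference they were -0.12 to 0.0178 for Bak1, -0.0289 to 0.0375 for Bid and -0.0192 to 0.0846 for Bnip3l. For the averaged genotype difference they were -0.0819 to 0.10 for Mcl1, -0.0299 to 0.18 for Bbc3, -0.0599 to 0.12 for Pmaip1, -0.0453 to 0.0208 for Bid and -0.0833 to 0.0204 for Bnip3l. Read numbers were lowest for Bid (8 to 28 reads) and for the non-IR libraries of Pmaip1 (11 to 24 reads).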
